A study of Mus musculus with 20 samples.

Results

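Transcripts of 9 transcription factors of the natural killer (NK) lineage were followed in NK cells from mouse spleen: Tbx21, Eomes, Id2, Nfil3, Tox, Ets1, Runx3, Prdm1 and Gata3. They were found by their gene name in the scanner files, where 17 of the 41174 named probes carry one of these names. All 9 were among the 17481 genes tested, each through its brightest probe, and 16 of the 17 probes passed the filter on dim signals. Each NK cell preparation came from a male C57BL/6 mouse and was hybridised to its own single-colour Agilent array. Control mice were gavaged with water daily for 14 days. The 3 treated groups were gavaged on the same schedule with ptaquiloside (5.3 mg/kg), with selenium (1.3 mg/kg) or with the 2 compounds together at these doses. There were 5 mice in each of the 4 groups, all different donors. Ptaquiloside is the toxic, carcinogenic norsesquiterpene glucoside of bracken, and selenium is an essential trace element. The comparison asks whether the compounds, alone or together, alter gene expression in NK cells. The cells were collected by depleting other spleen cells on magnetic columns, so they were never bound or sorted for a marker of their own.

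NK cells arise from lymphoid progenitors that come to depend on Nfil3, Ets1, Tox and Id2, and they mature under the T-box factors T-bet (encoded by Tbx21) and Eomes. T-bet and Eomes bind related sites and between them set the program of cytotoxic granules, interferon gamma and killer lectin receptors. Runx3, Prdm1 (Blimp-1) and Gata3 act in several lymphocyte lineages and tune the growth, maturation and tissue distribution of NK cells.

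Promoter sequence is shown for 3 of the factors. The Tbx21 and Gata3 promoters are shown because these genes were called by mouse number, which is also the slide, in a test below. The distal Runx3 promoter is shown because it holds a motif of its own family. The RefSeq promoter table (GRCm38.p6) matched 7 of the 9 genes. Each sequence is the 250 bases upstream of the transcript start, 5′ to 3′ on the gene's strand, and capitals mark a match on either strand to 1 of 5 motifs searched. The T-box half-site was searched as GTGTGA, which T-bet and Eomes are known to recognise. Sites of GATA factors were searched as AGATAA, which is the usual core of that zinc-finger family. For the RUNX family the letters were TGTGGT, its usual core. For ETS factors such as Ets1 they were CCGGAA, and for Nfil3 the palindrome TTACGTAA was used. Tbx21 lies at chr11:97115332-97115581 (minus strand), Gata3 at chr2:9878601-9878850 (minus strand) and the distal Runx3 promoter at chr4:135120395-135120644 (plus strand).
Tbx21: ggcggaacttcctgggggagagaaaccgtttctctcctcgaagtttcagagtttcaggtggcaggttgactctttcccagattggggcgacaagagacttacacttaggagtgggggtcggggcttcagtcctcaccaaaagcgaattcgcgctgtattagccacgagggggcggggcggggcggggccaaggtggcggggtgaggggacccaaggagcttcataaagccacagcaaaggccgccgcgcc
Gata3: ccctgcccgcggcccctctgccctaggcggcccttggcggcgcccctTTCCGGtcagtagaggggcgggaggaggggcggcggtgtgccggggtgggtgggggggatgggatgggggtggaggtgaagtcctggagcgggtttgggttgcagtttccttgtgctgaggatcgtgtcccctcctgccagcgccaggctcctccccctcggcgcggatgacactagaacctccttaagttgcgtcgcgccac
Runx3: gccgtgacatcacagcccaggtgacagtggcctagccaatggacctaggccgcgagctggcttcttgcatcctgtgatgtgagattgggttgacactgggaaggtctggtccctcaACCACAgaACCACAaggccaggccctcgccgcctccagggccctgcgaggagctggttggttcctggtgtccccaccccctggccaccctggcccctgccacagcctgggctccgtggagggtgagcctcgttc
The Gata3 promoter held 1 ETS match and the distal Runx3 promoter 2 RUNX matches, written ACCACA on the printed strand. Among 32851 mouse promoters of the same length, 12% held the ETS letters and 14% the RUNX letters, while 12.3% held the T-box half-site, 9.99% the GATA site and 0.113% the Nfil3 palindrome. No match to the 5 motifs was found in this window for Tbx21, Eomes, Id2, Nfil3, Prdm1 or the proximal Runx3 promoter. GC content ran from 46.4% for Eomes to 81.6% for Nfil3, with a median of 52.4% over all promoters.

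Levels are given as the log2 processed signal minus the 75th percentile of the same array, so 0 is a probe as bright as that percentile and 1 unit is a doubling. The level of a probe depends on its sequence, so different genes are not ranked by it. The 75th percentile was 10.5 scanner units for ptaquiloside mouse 4, called the dim array here, and 45.5 to 133 for the other 19 mice. Spots well above background made up 36.3% of the dim array and 51.7% to 60.8% of the others. Differences of the ptaquiloside group from control are therefore given with and without it. The dim array also enters the spread that the fit shares over all arrays, and so the errors of the other comparisons. In 19 or more of the 20 mice, 14 of 15 NK markers were detected well above background, and so were 11 of 13 T cell markers and 8 of 12 B cell markers. So were 11 of 12 macrophage and monocyte, 10 of 11 neutrophil, 6 of 6 plasma cell and 6 of 6 platelet and megakaryocyte markers. The counts were 5 of 8 for dendritic cells, 7 of 10 for erythroid cells and 5 of 8 for innate lymphoid cells besides NK. In such bulk RNA, fewer cells of a type and less RNA per cell cannot be told apart.

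No transcription factor of the 9 passed the test in any comparison between groups. limma with Benjamini-Hochberg adjustment at 0.05 over all 17481 genes called 0 of 9 for ptaquiloside against control, where 0% of all genes were called. It likewise called 0 of 9, and 0% of all genes, for selenium against control, both compounds against control, both compounds against either compound alone, the interaction, and limma's F-test for any difference among the 4 groups. The smallest adjusted p of a member was 0.801 for ptaquiloside, 1.00 for selenium and 1.00 for both compounds against control, and 0.521 in any alternative processing tried. Without adjustment, 262, 184 and 40 of the 17481 genes had a limma p under 0.05 in these 3 comparisons. Without the dim array the counts were 263, 455 and 105. With mouse number added to that fit they were 415, 948 and 237. Chance alone gives a share of 0.05 of the genes, more than any count without mouse number in the fit. The lack of calls does not show a lack of change. The groups of every member overlapped in every comparison, and across all genes only 0.114% to 0.498% had groups that did not overlap. The 95% intervals reached at most 0.82 to either side of a member's difference from control, and at least 0.42. Without the dim array these bounds were 0.72 and 0.33 for selenium and for both compounds. The p-values of this fit measure the spread between mice of a group, with differences between slides and the dim array included.

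**Figure D1:**
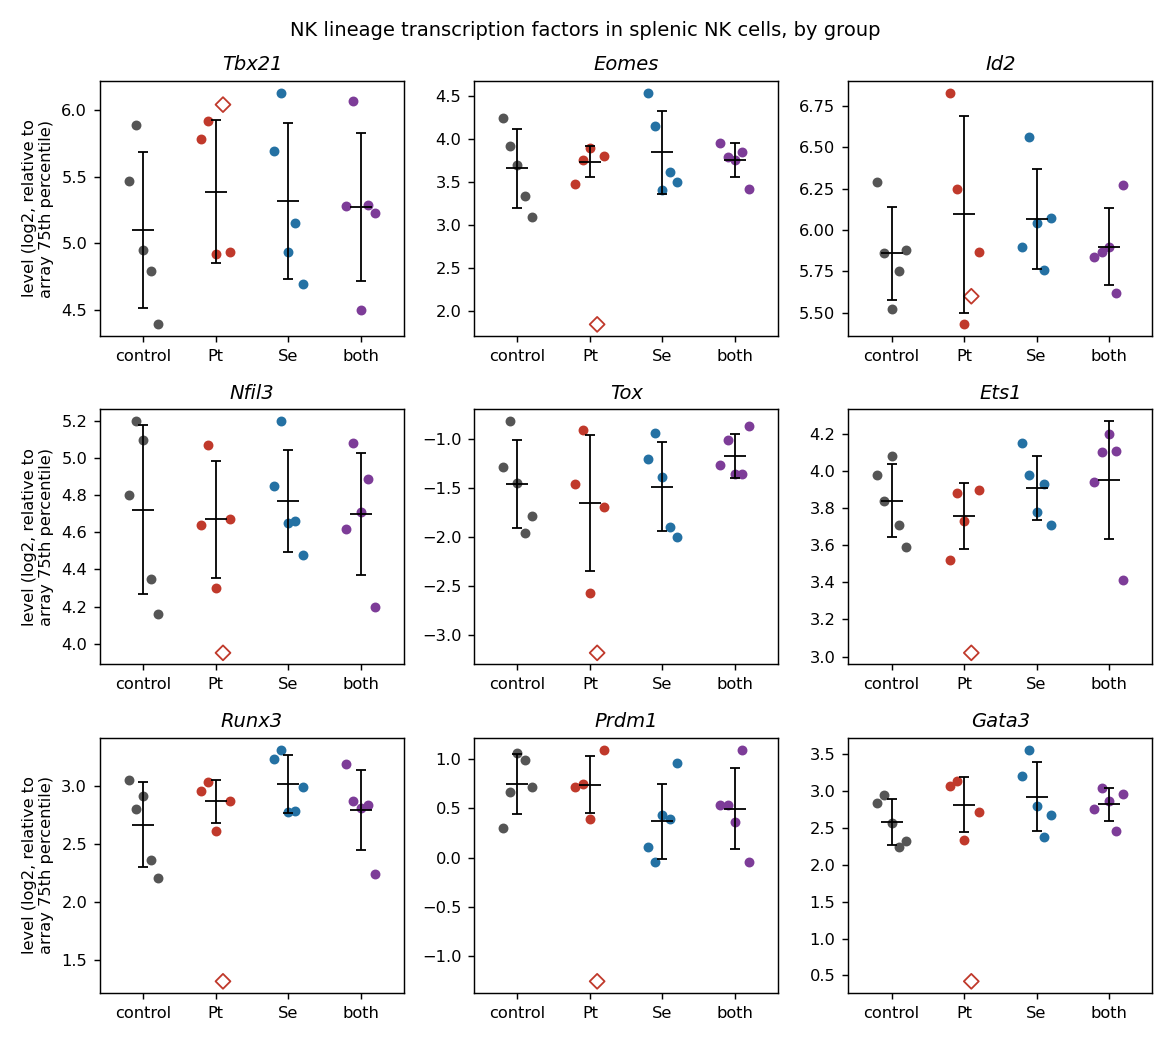
Level of each factor (log2, relative to the array's 75th percentile; a separate scale per gene) in each mouse, by group: control, ptaquiloside (Pt), selenium (Se) and both compounds. Dots are mice in the order of their numbers, the open diamond is the dim array, and bars are the mean and SD without it. The groups overlap for all 9 genes, and the diamond lies lowest of its group for 7 of them.

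Tbx21 encodes T-bet, the T-box factor of terminal NK maturation and interferon gamma production. It was read by 1 probe at chr11:96959417-96959476 (mm9), well above background on 20 of 20 arrays. In mice 1 to 5 the control levels were 5.47, 5.89, 4.95, 4.79 and 4.39. With ptaquiloside they were 5.78, 5.92, 4.92, 6.04 and 4.93. In every group the mice covered over 1 unit, and the groups overlapped. With selenium they were 5.69, 6.13, 4.93, 5.15 and 4.69, and with both compounds 5.28, 6.07, 4.50, 5.29 and 5.23. The means were 5.10 ± 0.59 in control, 5.52 ± 0.55 with ptaquiloside, 5.32 ± 0.58 with selenium and 5.27 ± 0.56 with both (SD, n = 5). In each group mouse 2 was higher than mice 1, 3 and 5. The difference of ptaquiloside from control was 0.42 ± 0.35 (SE; limma adjusted p = 0.801), a 1.34-fold estimate with a 95% interval of 0.799 to 2.24. Without the dim array, on which Tbx21 had the highest level of its group, it was 0.29 ± 0.36.

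Eomes, the second T-box factor, is needed to complete and keep NK identity. Its probe lies at chr9:118394286-118394345 (mm9). The control levels were 4.25, 3.92, 3.70, 3.33 and 3.09 in mice 1 to 5. The ptaquiloside levels were 3.48, 3.76, 3.90, 1.84 and 3.80. Apart from the dim array at 1.84, the ptaquiloside mice lay inside the control range. The selenium levels were 4.54, 4.15, 3.41, 3.62 and 3.50, and those with both compounds 3.95, 3.79, 3.76, 3.85 and 3.42. The ptaquiloside difference from control was -0.30 ± 0.35 with all arrays and turned to 0.08 ± 0.25 without the dim one. Selenium differed by 0.19 ± 0.35 and both compounds by 0.09 ± 0.35 (limma adjusted p = 1.00 for each).

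Id2 blocks E-protein activity and is required for innate lymphoid cells in general. Its brighter probe (chr12:25778904-25778963, mm9) ranged from 5.52 to 6.29 in control, 5.43 to 6.83 with ptaquiloside, 5.76 to 6.56 with selenium and 5.62 to 6.27 with both compounds. Id2 differed from control by 0.14 ± 0.25 with ptaquiloside (0.24 ± 0.24 without the dim array), by 0.21 ± 0.25 with selenium and by 0.04 ± 0.25 with both. Nfil3, the basic leucine zipper factor at the start of NK commitment, had control levels between 4.16 and 5.20 (chr13:53062585-53062644, mm9). Its other groups spanned 3.95 to 5.07 with ptaquiloside, 4.48 to 5.20 with selenium and 4.20 to 5.08 with both. The differences of Nfil3 from control were -0.20 ± 0.25, 0.04 ± 0.25 and -0.02 ± 0.25 in the same order, and without the dim array the ptaquiloside difference was -0.05 ± 0.24. Ets1, an ETS-family activator used early in the lineage, ranged from 3.59 to 4.08 in control and from 3.41 to 4.20 with both compounds (chr9:32561826-32561885, mm9). With ptaquiloside Ets1 was -0.23 ± 0.20 from control, and -0.09 ± 0.17 without the dim array.

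Tox, an HMG-box factor of early NK and T cell development, gave low signals (chr4:6615142-6615201, mm9). Its brighter probe was well above background on 19 of 20 arrays and not on the dim one. The control levels were -1.29, -0.82, -1.45, -1.96 and -1.79 in mice 1 to 5. The ptaquiloside levels were -1.46, -0.91, -2.57, -3.18 and -1.69. Ptaquiloside mouse 3 lay below all control mice, as did the dim array. The ptaquiloside difference from control was -0.50 ± 0.35, and -0.19 ± 0.30 without the dim array. The selenium levels were -1.21, -0.94, -1.39, -1.90 and -2.00. With both compounds they were -1.27, -1.01, -1.36, -1.36 and -0.87, the narrowest spread of the 4 groups (SD 0.22, n = 5). Both compounds against ptaquiloside alone gave the largest difference of any member between 2 groups, 0.79 ± 0.35, with an unadjusted p of 0.0380 and an adjusted p of 0.821 in limma. It was the only unadjusted p under 0.05 among the members, while 425 genes had one in that comparison. With mouse number as a block the unadjusted p was 0.00962 (limma adjusted p = 0.683), and without the dim array the difference was 0.48 ± 0.30. The second Tox probe, 307 bases away, gave only 0.07 ± 0.26 in this comparison, and 0.03 without the dim array. The interaction, that is how far the change by ptaquiloside in mice given selenium departs from its change in mice without it, was 0.81 ± 0.50 for Tox. It did not pass the test (limma adjusted p = 0.998), and without the dim array it was 0.51 ± 0.42 (limma adjusted p = 1.00). Tox was not well above background on the dim array, and on the 4 other slides the interaction lay between 0.02 and 1.15.

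Runx3 belongs to the RUNX family, which supports interleukin-15-driven NK growth. Its brighter probe (chr4:134732605-134732664, mm9) gave 3.05, 2.80, 2.91, 2.36 and 2.21 in control mice 1 to 5. The levels were 2.95, 3.03, 2.61, 1.32 and 2.87 with ptaquiloside, and 3.23, 3.31, 2.77, 2.78 and 2.99 with selenium. All 5 selenium mice lay above the 2 lowest control mice, and 2 of them lay above the whole control range. With both compounds they were 3.19, 2.87, 2.81, 2.83 and 2.24. The ptaquiloside difference from control was -0.11 ± 0.29 with all arrays and 0.20 ± 0.21 without the dim one. Selenium differed from control by 0.35 ± 0.29 (limma adjusted p = 1.00). On the same slide, selenium was above control in 4 of 5 pairs.

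Gata3, the zinc-finger factor of T helper and innate lymphoid lineages that also shapes NK maturation, was read by a probe at chr2:9778983-9779042 (mm9). Control levels were 2.84, 2.95, 2.56, 2.24 and 2.32 in mice 1 to 5. Selenium levels were 3.20, 3.56, 2.80, 2.38 and 2.67. Selenium was above control on all 5 slides, by 0.14 to 0.61, while the groups as a whole overlapped. How often other genes agree on 4 or all 5 slides was not computed, here or for Tox, Runx3 and Prdm1. The difference was 0.34 ± 0.39 in the fit to all arrays (limma adjusted p = 1.00). With the mouse number as a block and without the dim array it was 0.34 ± 0.14, with an unadjusted p of 0.0290 and an adjusted p of 0.902. Runx3 in that fit was at 0.35 ± 0.15, with an unadjusted p of 0.0385 and the same adjusted p, while 948 genes had an unadjusted p under 0.05. With ptaquiloside Gata3 read 3.07, 3.14, 2.34, 0.42 and 2.71, and with both compounds 2.76, 3.04, 2.86, 2.46 and 2.96. Its ptaquiloside difference was -0.25 ± 0.39 with the dim array and 0.23 ± 0.23 without it.

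Prdm1 encodes Blimp-1, a repressor that rises as NK cells mature. Its probe (chr10:44157291-44157350, mm9) read 0.30, 0.67, 1.07, 0.99 and 0.72 in control mice 1 to 5, and 0.11, -0.04, 0.43, 0.39 and 0.96 with selenium. Besides Tox (-0.02 ± 0.35), it was the only factor with a selenium mean below control, at -0.38 ± 0.35, and it was lower than control on 4 of 5 slides. With ptaquiloside the levels were 0.72, 0.75, 0.39, -1.26 and 1.10, the value on the dim array being not well above background. The ptaquiloside difference was -0.41 ± 0.35 with that array and -0.01 ± 0.24 without it. With both compounds the levels were 0.54, 0.54, 0.36, 1.10 and -0.05.

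Counted over the 9 factors, the direction under ptaquiloside rested on the dim array. With all arrays 2 were higher and 7 lower than control, with a median difference of -0.23. Without it 5 were higher and 4 lower, with a median of 0.08. The median of all genes was -0.00363 and -0.00103 in these fits. Under selenium 7 were higher and 2 lower (median 0.19, all genes 0.01), and under both compounds 7 were higher and 2 lower (median 0.11, all genes 0.02). These comparisons share their control mice. Probe by probe, 0 of the 16 tested probes were called, with 3 higher and 13 lower under ptaquiloside with all arrays and 9 higher and 7 lower without the dim one. Under selenium 13 of the 16 probes were higher and 3 lower, and the probes of all 5 members with several tested probes pointed the same way. Under both compounds the probes of 3 of these 5 (Id2, Nfil3 and Tox) pointed in different directions.

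**Figure D2:**
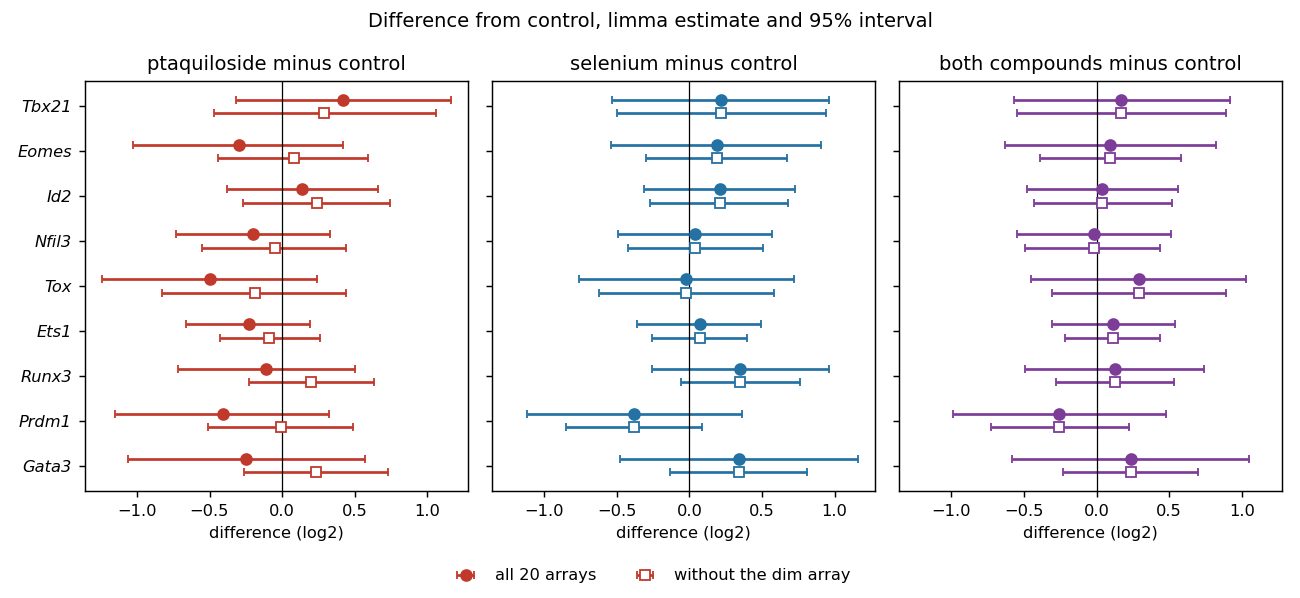
Difference of each group from control (log2) for the 9 factors, with limma's 95% interval; filled circles use all 20 arrays and open squares leave out the dim array. Every interval spans 0. In the ptaquiloside panel Eomes, Runx3 and Gata3 move from below 0 to above it when the dim array is left out.

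Of 48 other transcription factors used in NK cells, 45 were tested and 0 were called in each comparison. Under ptaquiloside 10 were higher and 35 lower (median -0.22) with all arrays, against 32 higher and 13 lower (median 0.14) without the dim one. Under selenium 24 were higher and 21 lower (median 0.01). The 12 genes known as targets of T-bet or Eomes had 0 calls, with 10 higher and 2 lower under selenium (median 0.23). Of 15 NK markers tested, 14 were higher and 1 lower under selenium (median 0.25), again with 0 calls. The target and marker lists are not independent, since Klrb1c, Ncr1, Prf1, Gzmb, Il2rb and Itga2 are in both.

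Markers of other cells were also counted by direction between the selenium and control groups, and none passed the test. Under selenium 12 of 12 T cell markers (median -0.36) and 12 of 12 B cell markers (median -0.99) were lower than control, with 0 called. The mean deviation of the T cell markers from their average over 19 arrays ran from -0.52 to -0.21 in selenium mice and from -0.24 to 0.84 in control mice. For the B cell markers it ran from -1.14 to 0.02 and from -0.20 to 1.13. Of 12 macrophage and monocyte markers 3 were higher and 9 lower under selenium (median -0.40), and of 11 neutrophil markers 9 were higher and 2 lower (median 0.57), again with 0 called. The mean deviation of the macrophage and monocyte markers ran from -0.44 to 0.21 in selenium mice and from -0.23 to 0.64 in control mice. That of the neutrophil markers ran from -0.50 to 1.07 and from -0.40 to 0.10. All 6 platelet and megakaryocyte markers were higher under selenium (median 0.25). Lower T and B cell markers were not particular to selenium. Under ptaquiloside without the dim array, 11 of 12 T cell and 11 of 12 B cell markers were lower than control and 1 of each higher. All 11 neutrophil markers were lower there. Of 6 plasma cell markers 5 were higher and 1 lower under selenium (median 0.26), with 0 called. T cells also use Gata3, Tox, Ets1 and Runx3, and Prdm1 too acts in several lymphocyte lineages. The part of other cells in the differences of the 9 factors, Prdm1 included, was not tested.

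The dim array did not lower all probes of a gene alike. Against the mean of the 3 other arrays of its slide, the Id2 probe used in the tests was shifted by -0.11 and the second Id2 probe, 1279 bases away, by -2.20. For Nfil3 the shifts were -0.68 and -2.36 at probes 284 bases apart, and for Ets1 they ran from -0.89 to -2.95 over 4 probes. The Runx3 probes, 646 bases apart, went in opposite directions, by -1.34 and 2.00. On the other 19 arrays the Nfil3 probes gave the same order of mice (Pearson r = 0.83, Spearman rho = 0.85), as did the Id2 probes less closely (0.66 and 0.72). Tox probes 1 and 2 did so only weakly (0.33 and 0.30), and Ets1 probes 1 and 2 did not (-0.09 and -0.07). Ets1 probes 1 and 4 cover 50 bases in common and differ at 4 of them, and their levels differed by 2.44 while their order of mice was alike (0.86 and 0.85).

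**Figure D3:**
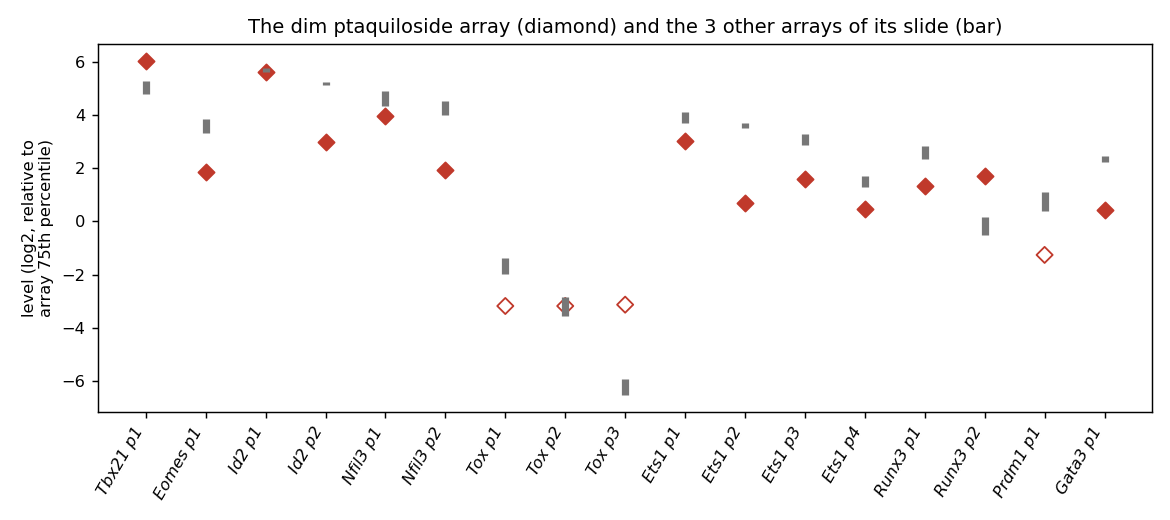
Level (log2, relative to the array's 75th percentile) of all 17 probes (p1 is the probe used in the tests) on the dim array (diamonds, open where not well above background), beside the range of the 3 other arrays on its slide (grey bars). Probes of the same gene lie at different distances from their bars, as in Id2, Nfil3, Ets1 and Runx3.

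Mouse number took up more of the sum of squares than treatment for every factor except Prdm1. Mouse numbers and slides coincide, per the file headers, with 1 mouse of each group on each of 5 slides, so mouse number, slide and whatever was done slide by slide cannot be told apart. In a test added after the data were seen, limma's F-test for any difference among the 5 mouse numbers with treatment in the model, fitted to the 19 arrays other than the dim one, called Tbx21 (adjusted p = 0.00267) and Gata3 (adjusted p = 0.0205). That is 2 of 9 factors, where 22.0% of all genes were called, a share near that of all genes. With all 20 arrays it called only Tbx21 of the 9 (adjusted p = 0.0302), 1 of 9 where 5.56% of all genes were called. The adjusted p of Tbx21 lay between 6.32e-04 and 0.0105 when each of the 19 arrays was left out in turn, and that of Gata3 between 0.00885 and 0.0563, past the threshold in 17 of 19 such fits. The exceptions for Gata3 were the fits without selenium mouse 2 and without selenium mouse 4.

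Tbx21 was highest in the mice numbered 2, at 6.00 ± 0.11 (SD, n = 4), followed by those numbered 1, at 5.55 ± 0.23. Those numbered 3, 4 and 5 lay at 4.83 ± 0.22, 5.08 ± 0.26 (n = 3, without the dim array) and 4.81 ± 0.35. The 4 mice numbered 2 lay between 5.89 and 6.13, above all 15 others outside the dim array. Gata3 was 3.17 ± 0.27 in the mice numbered 2, 2.97 ± 0.20 in those numbered 1 and 2.36 ± 0.11 in those numbered 4. Mouse number after group took up 82.6% of the sum of squares of Tbx21 and 65.8% of that of Gata3, against 3.49% and 14.6% for group after mouse number.

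The other factors did not pass. Nfil3 (adjusted p = 0.0583) and Tox (adjusted p = 0.0672) came next in limma's F-test, and both were highest in the mice numbered 2, at 5.14 ± 0.07 and -0.92 ± 0.08 (SD, n = 4). Runx3 had an adjusted p of 0.115, Eomes 0.215, Id2 0.296, Ets1 0.524 and Prdm1 0.569. Prdm1 had its highest mean in the mice numbered 4, at 0.83 ± 0.38 (n = 3), and its lowest in those numbered 1, at 0.42 ± 0.27.

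**Figure D4:**
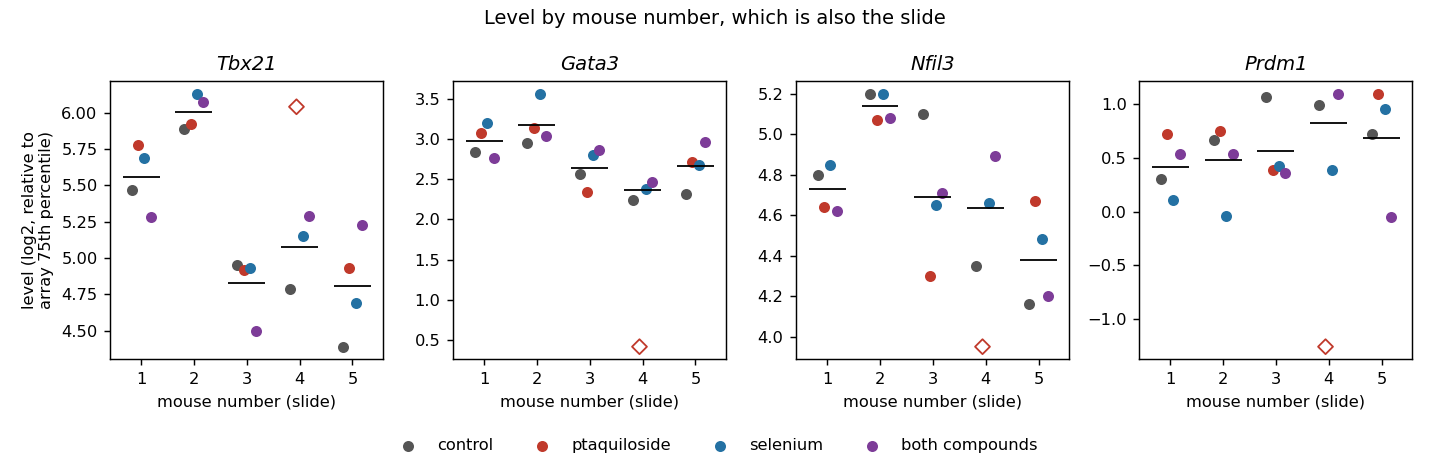
Level (log2, relative to the array's 75th percentile) of Tbx21, Gata3, Nfil3 and Prdm1 by mouse number, which is also the slide. Dots are mice coloured by group, horizontal lines are means over groups without the dim array, and the open diamond is the dim array. The 4 dots of mouse number 2 lie together at the top for Tbx21, between 5.89 and 6.13.

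Genes of the other fixed lists were read by mouse number in the same test. Among 11 tested targets of T-bet or Eomes, 4 were called on the 19 arrays, Ifng, S1pr5, Klrb1c and Ncr1, and all 4 had their highest mean in the mice numbered 2, as Tbx21 had. Ifng, the interferon gamma gene, lay at 6.64 ± 0.36 in the mice numbered 2 and 6.29 ± 0.13 in those numbered 1, against 5.37 ± 0.15, 4.90 ± 0.42 and 5.19 ± 0.42 in those numbered 3, 4 and 5 (SD; limma adjusted p = 2.38e-04). S1pr5, the receptor by which mature NK cells leave lymphoid organs, went from 0.81 ± 0.51 in the mice numbered 3 to 2.14 ± 0.08 in those numbered 2 (limma adjusted p = 0.00985). Of 45 other NK transcription factors 10 were called. Among them was Nr4a1, an immediate-early gene of receptor signalling, at 8.67 ± 0.14 in the mice numbered 2 and 7.58 ± 0.30 in those numbered 3 (limma adjusted p = 0.00320). Ikzf3, Mef2c, Foxo1 and Relb were also highest in the mice numbered 2. Bach2 was lowest there, at 1.51 ± 0.13, and highest in the mice numbered 5, at 3.54 ± 0.13. Id3 was highest in those numbered 5, and Klf2 and Ikzf1 in those numbered 1. Bhlhe40 was at 6.04 in the mice numbered 1 and in those numbered 2. Of 15 NK markers 5 were called, Klrb1c and Ncr1 again among them. Of 12 T cell and 12 B cell markers 1 each was called, Cd4 (lowest in the mice numbered 1) and Pax5 (lowest in those numbered 2). These shares stand against 22.0% of all genes. With all 20 arrays, where 5.56% of all genes were called, the test called 2 of 11 targets, 6 of 45 other NK transcription factors and 0 of 15 NK, 12 T cell and 12 B cell markers. Of the 26 genes of all lists called on the 19 arrays, Tbx21 and Gata3 included, 16 had their highest mean in the mice numbered 2. These 16 include Areg, a marker of other innate lymphoid cells here, and Zbtb46, a dendritic cell marker. The share of all called genes with their highest mean in the mice numbered 2 was not computed. The count of 16, and that of the 4 targets, therefore have no background to be set against.

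Across the 19 arrays the levels of the factors went mostly the same way. The median Pearson r over the 36 pairs was 0.46, from -0.53 to 0.76, as a description of arrays that share slides. After removing the mean of each mouse number it was 0.24, from -0.47 to 0.69, and 26 of the 36 pairs were above 0, against 29 before. Of the 28 pairs without Prdm1, 27 had an r above 0 before that removal. The r of other gene pairs on these arrays was not computed, so these values have no background to be set against. The closest pairs were Tox with Gata3 (Pearson r = 0.76, Spearman rho = 0.77, r = 0.79 without the 2 arrays farthest from the median) and Tbx21 with Gata3 (0.75, 0.75 and 0.67). Prdm1 had an r below 0 with 6 of the 8 others, the lowest with Gata3 at -0.53 (rho -0.48, and -0.36 without the 2 farthest arrays). Among 13004 genes well above background on these arrays, those most like Tbx21 were Evx1 (r = 0.94) and Arrdc3 (r = 0.92) besides a probe without a gene name. With the mean of each mouse number removed these were 0.73 and 0.67. Those most like Gata3 were Mpnd (0.93), Pfn1 (0.92) and Limk1 (0.91), and those most like Prdm1 were Dram1 (0.90), Csf3r (0.89) and Mpp1 (0.88).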

How the data were processed

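RNA of splenic NK cells from 20 mice was hybridised with Cy3 label, 1 array per mouse. The deposited scanner files, made with Agilent Feature Extraction 9.5.3.1 per the submitters' processing notes, hold the processed signal, a background-subtracted intensity not scaled between arrays per the file headers. Other columns of the deposited files flag control, outlier and background spots. The authors also deposited a table of log2 values. Of its 20 columns 18 equal an array's log2 processed signal plus 19.93, unscaled, with medians of 22.8 to 23.7. The other 2 match no single array, and the table's header says that a control and a ptaquiloside array were replaced by means. No column equals control mouse 1 or ptaquiloside mouse 4, the dim array. Its values of unit other, written with decimal commas, were read as log2 and used only as an alternative.

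Levels are log2 intensity minus each array's 75th percentile. Control and outlier spots were left out, and spots of a probe were averaged. A probe was kept where 5 or more of the 20 arrays flagged it as well above background, and the brightest probe on average stood for a gene. Through their accession 25097 of 41174 probes were named in the reference list of genes, and 16077 kept the file's name. Probe positions are the files' own, on mm9, without exon annotation. Groups were compared with limma 3.58.1 (R 4.3.3, statmod 1.5.0, version 1.17.8 of data.table), 1 mean per group over all 20 arrays, two-sided, with each comparison adjusted separately. The mouse number enters the alternatives as a block, since the file headers place same-numbered mice on the same slide. The deviations of 27 such pairs had a median correlation of 0.33 (-0.23 to 0.72), against -0.10 for 108 other pairs. All 9 members are named, and of other lists counts and up to 4 genes with the smallest p. Exceptions, chosen after their values were seen, are Cd4, Pax5, the other NK transcription factors named by mouse number and the order of mouse numbers. Members and lists were chosen with earlier results of these data known. The scripts were tested on simulated data.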

Additional observations from a re-analysis of the deposited data

Results flagged for a closer look

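In 36 sets of 5 mice, 1 for each factor and group, a mouse stood far from the other 4 in 2 sets, against about 1 in 20 by chance. Eomes in ptaquiloside mouse 4, the dim array, had a level of 1.84, with the nearest mouse at 3.48, and this gap was 0.797 of the range of the group. Runx3 in the same mouse had a level of 1.32, with the nearest mouse at 2.61, a gap of 0.752 of the range. Both values come from the array whose 75th percentile was 10.5 scanner units, and the part of its low signal in them was not tested. The gap was judged as a share of the range, not in log2 units. On the same array Gata3, at 0.42 with the nearest mouse at 2.34, was not flagged. Neither was Prdm1, at -1.26 with the nearest mouse at 0.39.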

How the results depend on the processing

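No member was called between groups under any alternative, and no gene count between groups changed except the interaction, which ran from 0 to 1 gene when each array was left out in turn. The mouse-number test was added after the data were seen. It called 2 members and 3844 genes, and 7 and 6691 with median centring, 1 and 276 with normexp background, 4 members with the mean over probes, 1947 genes with only probes above background on all 20 arrays, and 1 and 970 with all 20 arrays. Leaving out each array moved these counts between 1 and 3 members and between 2211 and 5576 genes. The genes fell to 2211 without control mouse 2, 2326 without both-compounds mouse 1 and 2544 without selenium mouse 2, and the members to 1 without selenium mouse 2 or 4. Precision is limited by 5 mice a group and, for Tox and Prdm1, by signals not well above background on the dim array, so the filter on all 20 arrays kept 7 of 9 members.

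With mouse number as a replicate block (the slide), 0 members were called, and Tox in both compounds minus ptaquiloside stayed at 0.79. The block changed no call. Differences of members changed direction 56 times under other settings and 36 times with an array left out. The cause of the reversals was not tested. Median centring also moved the median of all genes, to -0.24 for ptaquiloside minus control and 0.20 for both minus ptaquiloside. In the deposited table, which is unscaled, this median was -0.06 for ptaquiloside, -0.12 for selenium and -0.16 for both compounds minus control. There it was -0.10 for both minus ptaquiloside, -0.04 for both minus selenium and 0.01 for the interaction. For the t-test on unscaled values it was not computed.

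The following differences (log2) changed sign. With the replicate block and without ptaquiloside 4, ptaquiloside minus control was 0.04 for Eomes, 0.13 for Gata3, 0.06 for Prdm1 and 0.16 for Runx3. Both minus ptaquiloside was then -0.31 for Prdm1 and -0.03 for Runx3, and the interaction -0.13 for Eomes and -0.23 for Gata3. No column of the deposited table equals the dim array or control mouse 1. With that table, ptaquiloside minus control was 0.17 for Eomes, 0.25 for Gata3 and 0.25 for Runx3. Selenium minus control was -0.02 for Ets1 and -0.06 for Nfil3. Both minus control was -0.02 for Ets1 and Id2, both minus selenium -0.00212 for Ets1, and the interaction -0.31 for Eomes, -0.39 for Gata3 and -0.03 for Nfil3. Both minus ptaquiloside in that table was -0.10 for Eomes, -0.11 for Gata3, -0.09 for Nfil3, -0.36 for Prdm1 and -0.19 for Runx3. With the methods' t-test on unscaled values, both minus control was -0.10 for Eomes, -0.07 for Runx3, -0.15 for Id2, -0.09 for Ets1 and -0.02 for Tbx21, ptaquiloside minus control -0.61 for Id2 and -0.33 for Tbx21, and selenium minus control -0.11 for Nfil3 and -0.08 for Ets1. That test called 0 of 43379 spots after adjustment in each comparison with control, with 611, 1095 and 431 at an unadjusted p under 0.05.

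With the mean over probes, Id2 was -0.13 (ptaquiloside minus control), -0.00409 (both minus control) and 0.12 (both minus ptaquiloside), Runx3 0.18 and -0.04 (ptaquiloside minus control, both minus ptaquiloside), Nfil3 9.94e-04 (both minus control) and Ets1 -0.01 (both minus selenium). With median centring, Id2 was -0.10, -0.00253 and 0.09 in the same order, Tox 0.04 (selenium minus control), Ets1 -0.06 (both minus selenium) and the Runx3 interaction 0.01. With normexp background, ptaquiloside minus control was -0.14 for Id2, both minus control 0.05 for Nfil3, both minus ptaquiloside 0.25 for Id2, -0.07 for Prdm1 and 0.05 for Tbx21, both minus selenium 0.00480 for Tbx21 and the Id2 interaction 0.01. With quantile normalization, Tbx21 was 0.01 (both minus selenium), Nfil3 -0.01 and Tox 0.01 (selenium minus control).

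Ranges over arrays left out that crossed 0 were, for ptaquiloside minus control, -0.44 to 0.08 for Eomes, -0.45 to 0.23 for Gata3, -0.07 to 0.28 for Id2 and -0.23 to 0.20 for Runx3. For selenium minus control they were -0.10 to 0.16 for Nfil3 and -0.16 to 0.14 for Tox. For both minus control they were -0.05 to 0.24 for Eomes, -0.05 to 0.15 for Id2, -0.16 to 0.10 for Nfil3 and -0.03 to 0.37 for Tbx21, and for both minus ptaquiloside -0.23 to 0.12 for Id2, -0.24 to 0.35 for Prdm1 and -0.08 to 0.37 for Runx3. For both minus selenium they were -0.20 to 0.08 for Eomes, -0.02 to 0.18 for Ets1, -0.24 to 0.05 for Gata3, -0.16 to 0.06 for Nfil3, -0.02 to 0.27 for Prdm1 and -0.24 to 0.16 for Tbx21. For the interaction they were -0.17 to 0.39 for Eomes, -0.34 to 0.34 for Gata3, -0.01 to 0.27 for Nfil3 and -0.43 to 0.02 for Runx3.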
